A study of Homo sapiens with 4 samples.

Results

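The 92 array probes described here were lower in Arp5-knockout and in Arp8-knockout Nalm-6 cells than in wild-type cells and in cells labelled Arp8-over expression. They read 62 named genes, and 15 of the probes could not be given a gene name. The largest gaps belonged to 7 genes. DAPP1 encodes an adaptor protein of phosphoinositide signaling in B cells, MCM2 a subunit of the replicative helicase and MOB3B a member of the MOB family of kinase adaptors. PLD4 encodes an endolysosomal enzyme that degrades single-stranded nucleic acids, DHODH the mitochondrial enzyme of pyrimidine synthesis, CKLF a chemokine-like protein and CD180 a Toll-like surface receptor of B cells. For each of them the gap defined next was above 1 on the log2 scale. Normexp, another way to correct the background, was run on the median spot signal in place of the mean. It added an offset of 50 to every corrected signal, which by itself lowers the gap of a dim probe. Where a gene has several member probes, the normexp value is that of the probe with the largest gap. With normexp the gap stayed above 1 for MCM2 (1.29) and DHODH (1.05). It was lower for PLD4 (0.96), CKLF (0.94), CD180 (0.75), DAPP1 (0.58) and MOB3B (0.52). The array held 41000 probes, of which 23216 passed the filters, being well above background on all 4 arrays with a background-subtracted signal of 50 or more on WT and Arp8-over expression, so the 92 probes made up 0.396% of those that could have been chosen. The probes were selected on the 4 values of each probe. The level of a probe is the log2 of its signal minus the 75th percentile of its array. A probe was taken when the higher of its knockout levels lay below the lower of its other levels by more than 0.5 on the log2 scale, a distance called the gap in the following. The values and gaps of the members are therefore a description and carry no test, and HMOX1 and MX1 were left out by the rule.

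Nalm-6 is a human leukemia line with the features of a pre-B cell. Total RNA from unstressed cells was hybridized to 1-color (Cy3) Agilent arrays, and the comparisons ask which transcripts depend on the INO80 subunits Arp5 and Arp8. There was 1 array for each genotype, so no value has a replicate, and a difference between genotypes cannot be told apart from a difference between cultures. The groups were wild type (WT), Arp5-knockout, with the Arp5 locus disrupted by homologous recombination, Arp8-knockout, with the Arp8 locus disrupted in the same manner, and Arp8-over expression, for which a Tet-Off construct was placed in Arp8-knockout cells. All groups shared the Nalm-6 background and 1 culture medium. Whether the Arp8-knockout array came from cells that carry the construct is not stated, and the number of clones is not given in the sources used here. All 4 arrays lay on 1 slide. The 75th percentile of the signal was 1980.5 on WT, 2012 on Arp8-over expression, 1950.0 in Arp5-knockout and 2004 in Arp8-knockout. On the same arrays 71.9%, 71.0%, 72.4% and 70.1% of the spots were well above background, and no spot was saturated. Because bulk RNA was measured, fewer cells of a type and less RNA per cell cannot be told apart.

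The INO80 complex is a chromatin remodeler that slides and exchanges nucleosomes and takes part in transcription, DNA replication and DNA repair. Arp5 and Arp8 are actin-related proteins found in separate modules of the complex, where they help it to engage and move nucleosomes. Pre-B cells carry a receptor made of an immunoglobulin heavy chain and the surrogate light chain, and signals from this receptor drive their growth and further maturation.

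The labels were first checked on the targeted genes. The ACTR5 probe, which reads the Arp5 transcript, gave a signal of 1909 on WT, 2088 on Arp8-over expression, 1849 on Arp8-knockout and 65.3 on Arp5-knockout. Its level was far lower in Arp5-knockout than on the other arrays (Arp5-knockout minus WT, -4.85 on the log2 scale). The brighter ACTR8 probe gave 2149 on WT, 1857 on Arp8-over expression, 2233 on Arp5-knockout and 1654 on Arp8-knockout. The dimmer ACTR8 probe gave 1092, 679, 993 and 785 on the same arrays in the same order. Neither probe was higher on the array labelled Arp8-over expression than on WT, and neither was near background in Arp8-knockout. Which part of the Arp8 transcript the disruption removes, and whether these probes lie in the transgene, is not given in the sources used here, so the probes do not settle the Arp8 labels. In the rest of the Results the array is called the array labelled Arp8-over expression. The INO80 gene itself was not a member. Its brighter probe gave 6899.8 on WT, 8070.0 on the array labelled Arp8-over expression, 12004 in Arp5-knockout and 14102 in Arp8-knockout, the opposite order to that of the members under every scaling tried.

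Markers of the labelled cell type were present. All 15 pre-B markers with a probe were well above background on all 4 arrays, and their brightest probes summed to 405862 on WT, 416711 on the array labelled Arp8-over expression, 390802 in Arp5-knockout and 388017 in Arp8-knockout. Both knockouts were thus below both other arrays in this sum, but most probes of the list did not share this order. Over its 21 probes the median gap was -0.22, beside -0.21 over all probes that passed the filters. A gap above 0 was found in 5 of the 21 (23.8%, beside 15.1% of all probes that passed). The most abundant of the pre-B markers was IGLL1, a surrogate light chain component, with signals between 136612 in Arp8-knockout and 140829 in Arp5-knockout. Among them VPREB3 was the 1 member of the set. Of the T cell markers, 4 of 7 were well above background, led by CD4 with 5261 on WT, while CD3D, CD3G and TRAT1 were not. Of the NK markers only NKG7, 1 of 5, was well above background, with 325 on WT. Of the myeloid markers 3 of 8 were, with CD14 the brightest at 119 on WT and MPO and ELANE not. The erythroid list had 2 of 5, with HBA1 at 91.1, and the platelet list 3 of 4, with ITGA2B at 67.4. Of the stromal list 2 of 5 were, namely COL1A1 and VIM, an intermediate filament gene that lymphoblasts also express, and VIM made up nearly all of its sum. No probe of these 6 lists was a member. Their summed signals on WT, the array labelled Arp8-over expression, Arp5-knockout and Arp8-knockout were 5473, 6788, 6121 and 4704 for the T cell list, 325, 264, 459 and 245 for NK, 186, 275, 182 and 282 for myeloid, 112, 107, 107 and 113 for erythroid, 118, 109, 119.7 and 135 for platelet and 154657, 149751, 154556 and 144955 for stromal. In none of these 6 lists were both knockouts below both other arrays, and the part of these transcripts in the members' values was not tested.

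The same rule was also applied with the direction turned. By it, 61 of the 23216 probes (0.263%) were higher in both knockouts than on both other arrays by the same distance, and these read 32 named genes. The signal minimum was set on WT and the array labelled Arp8-over expression. Without it more probes could be chosen (27921 were well above background on all 4 arrays), and 110 were lower and 110 higher. The difference between 92 and 61 therefore depends on this filter. Fewer conditions gave many more probes. Against WT alone, 422 probes (1.82%) were lower in both knockouts by more than 0.5, and against the array labelled Arp8-over expression alone 355 (1.53%) were. Since the members were chosen by these same contrasts, nothing is read from these shares. The median gap was 0.64 over the members (lowest 0.50, highest 1.31) and -0.21 over all probes that passed the filters. The count of members was 52 in place of 92 when the background was corrected with normexp, and 51 of those 52 were among the 92.

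The technical error came from 184 probes that are printed 7 to 10 times on the array and passed the filters. The SD of the gap over repeated spots had a median of 0.028 where the dimmest of the 4 signals was 500 or more (145 probes), 0.049 between 100 and 500 (30 probes) and 0.079 between 50 and 100 (7 probes). Below 50 only 2 such probes were found, with a median of 0.12. By the same bins, 33 members had a dimmest signal of 500 or more, 30 lay between 100 and 500, 16 between 50 and 100 and 13 below 50. These SDs hold no variation between cultures. TCF7, a transcription factor gene, was the only member with repeated spots. Its 10 spots averaged 552 on WT, 545 on the array labelled Arp8-over expression, 354 in Arp5-knockout and 383 in Arp8-knockout, with SDs on the log2 scale between 0.037 and 0.051.

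**Figure D1:**
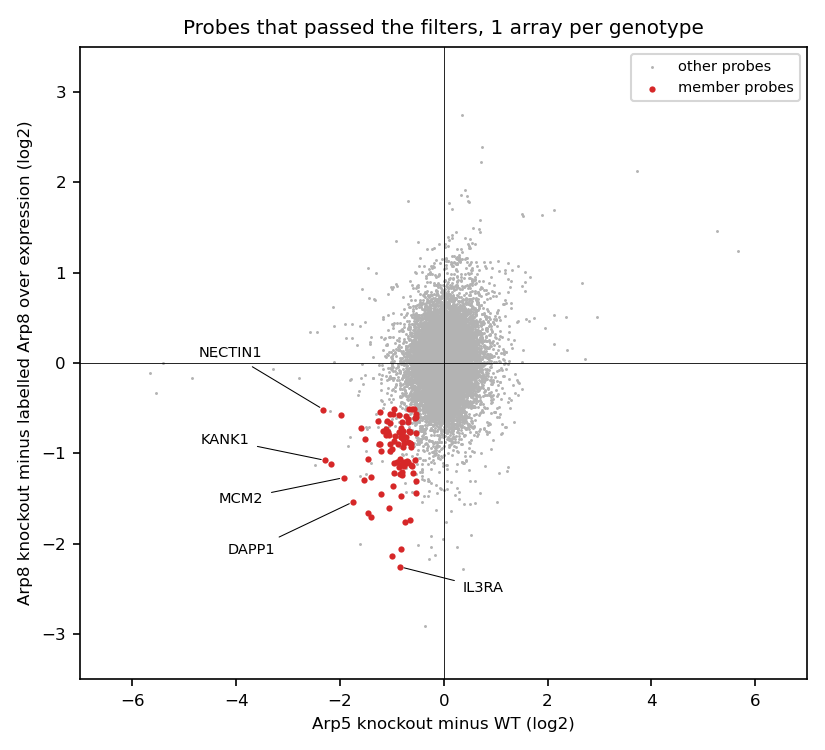
Each point is a probe that passed the filters (23216 in all), with the log2 difference Arp5 knockout minus WT on the horizontal axis and Arp8 knockout minus the array labelled Arp8 over expression on the vertical axis, from 1 array per genotype; the axes share no array. The 92 members, in red, were selected on these values and lie below -0.50 on both axes, with NECTIN1 and KANK1 far to the left and IL3RA lowest.

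Members of the pre-B-cell receptor signaling list are given first. DAPP1 had signals of 104 on WT, 77.8 on the array labelled Arp8-over expression, 30.4 in Arp5-knockout and 26.7 in Arp8-knockout, a gap of 1.31 that was 0.58 with normexp. It was a dim probe on all arrays, and both knockouts were well below the other arrays. CD180 gave 215 on WT, 262 on the array labelled Arp8-over expression, 73.0 in Arp5-knockout and 107 in Arp8-knockout, with a gap of 1.03. LY86, which encodes the soluble partner that CD180 needs on the surface, was not a member, with 3657, 2835, 2597 and 1867 on the same arrays and a gap of 0.08. PLD4 was read by 2 probes. Its dimmer probe gave 792, 1177, 283 and 371 (gap 1.11) and its brighter probe 1503, 2566, 560.5 and 785 (gap 0.95) on WT, the array labelled Arp8-over expression, Arp5-knockout and Arp8-knockout. On both PLD4 probes the array labelled Arp8-over expression was the highest. VPREB3, a protein that associates with the pre-B-cell receptor during its assembly, was a bright member with 10009.5, 10447, 5641 and 4411 on the same arrays and a gap of 0.80.

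These genes made up 5 member probes, of 4 genes, among the 43 probes of the pre-B-cell receptor signaling list that passed the filters (11.6%, beside 0.396% over all probes). The list was put together with earlier results of these data known and holds DAPP1, CD180 and PLD4, so its count is not independent evidence of a direction. CD180, a Toll-like receptor, and PLD4, an endolysosomal enzyme, are not parts of the pre-B-cell receptor, and they give most of the member probes. The other gene lists were also chosen with earlier results known, so the same limit holds for their shares. The median gap over its 43 probes was -0.05, and 18 of them (41.9%) had a gap above 0, beside 15.1% of all probes that passed. Its other genes spread widely. BLK, a kinase of the Src family in B cells, came nearest to the limit with a gap of 0.43 and signals of 5932, 8486, 4348 and 3652 on WT, the array labelled Arp8-over expression, Arp5-knockout and Arp8-knockout. IGLL1, VPREB1, CD79A and CD79B, which encode chains of the receptor, were not members.

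Among regulators and receptors, IRF8, a transcription factor of B cells and myeloid cells, gave 80.8 on WT, 82.9 on the array labelled Arp8-over expression, 33.6 in Arp5-knockout and 44.3 in Arp8-knockout, a gap of 0.88. With normexp the gap of IRF8 was 0.42, below the limit. It was the 1 member among the 60 probes of the B-lineage transcription factor list (1.67%, beside 0.396% over all probes), whose median gap was -0.24. In this list 12 probes (20%, beside 15.1% of all probes that passed) had a gap above 0. AFF3, a nuclear elongation factor of lymphoid cells, came nearest to the limit among its other genes with a gap of 0.42, and POU2AF1, the B-cell coactivator of octamer-binding factors, had a gap of 0.41 and signals of 33204, 39263, 24579 and 23293 on the same arrays. IL3RA, the alpha chain of the interleukin-3 receptor, was read by 2 member probes. The brighter gave 487, 1133, 268 and 236 and the dimmer 81.7, 184, 45.2 and 44.1 on WT, the array labelled Arp8-over expression, Arp5-knockout and Arp8-knockout, with gaps of 0.84 and 0.83. On both probes the array labelled Arp8-over expression stood far above WT. The cytokine receptor and JAK-STAT list, which did not hold IL3RA, had 0 members among 51 probes and a median gap of -0.22.

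The promoters of VPREB3 and PLD4 are shown as those of members of the receptor list. The sequences are the 250 bases before the start of the gene in RefSeq (GRCh38.p14), at chr22:23754426-23754675 (- strand) and chr14:104924629-104924878 (+ strand), and capitals mark matches to any of the 10 motifs searched. In VPREB3 the capitals are a CCAAT box, read on the opposite strand, that begins 91 bases before the start. An SP motif (GGGCGG, opposite strand) follows at 76. In PLD4 the capitals are an SP motif, also on the opposite strand, at 117.
VPREB3: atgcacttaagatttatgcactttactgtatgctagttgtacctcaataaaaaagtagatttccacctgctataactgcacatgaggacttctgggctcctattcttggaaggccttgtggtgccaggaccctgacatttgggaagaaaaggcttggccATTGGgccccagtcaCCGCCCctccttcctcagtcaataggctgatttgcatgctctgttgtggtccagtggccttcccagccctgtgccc
PLD4: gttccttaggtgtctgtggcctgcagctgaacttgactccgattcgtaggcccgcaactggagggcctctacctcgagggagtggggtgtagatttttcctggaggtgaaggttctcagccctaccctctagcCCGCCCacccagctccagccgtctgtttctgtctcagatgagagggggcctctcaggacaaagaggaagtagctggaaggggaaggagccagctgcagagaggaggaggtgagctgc

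Genes induced by interferon were also among the members. ISG20, an exonuclease that degrades RNA, gave 2169 on WT, 2247 on the array labelled Arp8-over expression, 1208 in Arp5-knockout and 1267 in Arp8-knockout, a gap of 0.79. The values fell into a high and a low pair with little distance within each pair. MX2, a dynamin-like GTPase, was read by 2 member probes with 808, 858, 414 and 489 (gap 0.74) and 2381, 2794, 1328 and 1581 (gap 0.61) on WT, the array labelled Arp8-over expression, Arp5-knockout and Arp8-knockout. GBP1, a guanylate-binding protein, lay at the limit, with 1416, 1377, 942 and 964 on the same arrays and a gap of 0.50. Its other probe gave 919.7, 972, 637 and 677 and a gap of 0.46. The interferon-stimulated list, which did not hold GBP1, had 3 member probes of 2 genes among 68 (4.41%, beside 0.396% over all probes), a median gap of -0.11 and 19 probes (27.9%, beside 15.1%) with a gap above 0. The nearest of its other genes was IFIT2, with gaps of 0.39 and 0.30 on its 2 probes.

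The promoters of ISG20 and GBP1 are shown because they hold the letters of an interferon-stimulated response element (ISRE, searched as GAAANNGAA on both strands). They lie at chr15:88638766-88639015 (+ strand) and chr1:89065209-89065458 (- strand) in GRCh38.p14 (RefSeq), and capitals mark matches to any motif searched. Both hold the same 9 letters, GAAACTGAA, which begin 69 bases before the start in ISG20 and, on the opposite strand as TTCAGTTTC, 126 bases before it in GBP1. The other capitals in ISG20 are antioxidant response elements (ARE, TGACNNNGC) at 189, on the opposite strand, and 176. They also mark an E-box (CACGTG) at 114 and an SP motif, on the opposite strand, at 99. A match is a run of letters and not a measured binding site. MX2 has no entry in the table of promoters used.
ISG20: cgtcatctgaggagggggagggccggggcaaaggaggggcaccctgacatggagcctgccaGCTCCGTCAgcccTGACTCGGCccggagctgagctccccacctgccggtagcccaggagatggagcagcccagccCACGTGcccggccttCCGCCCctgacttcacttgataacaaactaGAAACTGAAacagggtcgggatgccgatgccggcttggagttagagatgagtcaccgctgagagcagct
GBP1: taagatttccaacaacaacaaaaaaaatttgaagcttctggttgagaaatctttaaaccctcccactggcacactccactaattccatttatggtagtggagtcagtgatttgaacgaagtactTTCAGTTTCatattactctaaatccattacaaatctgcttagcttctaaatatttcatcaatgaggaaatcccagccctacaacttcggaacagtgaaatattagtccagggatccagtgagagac

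MCM2 encodes a subunit of the ring-shaped helicase that unwinds DNA for replication. Its only probe gave 51402 on WT, 48591 on the array labelled Arp8-over expression, 13309 in Arp5-knockout and 20075 in Arp8-knockout, a gap of 1.27. Both knockouts lay far below the pair of other arrays, and Arp5-knockout was lower than Arp8-knockout by more than 0.5 (Arp5-knockout minus Arp8-knockout, -0.55). The other subunits of the helicase ring lay far from the limit. MCM3 gave 92598, 105249.7, 110984 and 96756 on WT, the array labelled Arp8-over expression, Arp5-knockout and Arp8-knockout, and its gap was -0.28. MCM4 gave 7071, 9626, 4139 and 7627, with a gap of -0.09, so that only Arp5-knockout was below both other arrays. MCM5 and MCM7 had gaps of -0.09 and -0.11. MCM6 had a gap of 0.05, with both knockouts slightly below the other arrays. These gaps kept their sign under every scaling tried. MCM2 was the 1 member among 92 probes of the DNA replication and cell cycle list (1.09%, beside 0.396% over all probes), which had a median gap of -0.07 and 30 probes (32.6%, beside 15.1%) with a gap above 0. RRM2, a subunit of ribonucleotide reductase, was nearest to the limit among its other genes, with gaps of 0.46 and 0.37 on 2 probes. As MCM2 has no other probe here, its value rests on 1 probe.

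The MCM2 promoter is shown because its gap was among the largest. It lies at chr3:127598161-127598410 (+ strand) in GRCh38.p14 (RefSeq). Capitals mark SP motifs that begin 143 bases and, on the opposite strand, 98 bases before the start, an ARE at 53 and an E-box at 11.
MCM2: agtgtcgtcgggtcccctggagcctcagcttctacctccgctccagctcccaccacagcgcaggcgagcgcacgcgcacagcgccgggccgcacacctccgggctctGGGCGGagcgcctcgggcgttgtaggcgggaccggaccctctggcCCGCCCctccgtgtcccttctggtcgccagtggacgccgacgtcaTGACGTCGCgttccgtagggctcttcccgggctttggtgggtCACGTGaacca

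Members with roles in RNA processing and transcription are given next. SNRNP40, a protein of the spliceosome's U5 particle, was read by 2 member probes. The brighter gave 4599 on WT, 4179.5 on the array labelled Arp8-over expression, 2518 in Arp5-knockout and 1772 in Arp8-knockout, and the gaps were 0.69 and 0.61. On both probes Arp8-knockout was the lowest array. UTP14C, a retrotransposed copy of a gene for ribosomal RNA processing, gave 1441, 1300.4, 678 and 761 on the same arrays, a gap of 0.77. ZIK1, a zinc finger protein, gave 277, 317, 161 and 147 and a gap of 0.76.

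DHODH, of pyrimidine synthesis, gave 3447 on WT, 2839 on the array labelled Arp8-over expression, 1285 in Arp5-knockout and 1175 in Arp8-knockout, a gap of 1.098. SPTLC3, a subunit of the enzyme that begins sphingolipid synthesis, gave 184, 425, 90.5 and 96.0 on its brighter probe and 57.1, 87.8, 33.4 and 25.8 on its dimmer probe, with gaps of 0.95 and 0.75. The array labelled Arp8-over expression was the highest on both. AMPD3, an AMP deaminase, had gaps of 0.54 and 0.53 on 2 dim probes. PLPP7 had a gap of 0.73 with 86.2, 78.4, 39.0 and 47.1 on the 4 arrays in the same order. ACYP2, an acylphosphatase, had gaps of 0.66 and 0.50 on 2 probes. CAB39L, a scaffold of the LKB1 kinase, gave 203, 194, 108 and 104, a gap of 0.81. With normexp the gap was below the limit for PLPP7 (0.41) and for the AMPD3 probe with the larger gap (0.28).

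Genes of membrane traffic, the cytoskeleton and adhesion were also among the members. COPZ1, a subunit of the coatomer of Golgi vesicles, gave 12387 on WT, 11911 on the array labelled Arp8-over expression, 5237 in Arp5-knockout and 6355 in Arp8-knockout on its brighter probe, and its gaps were 0.90 and 0.65. CKLF was the only gene with 3 member probes, with gaps of 1.06, 0.97 and 0.76, and its brightest probe gave 4745, 4719, 1709.6 and 2256 on the same arrays. On both of these probes WT and the array labelled Arp8-over expression were nearly level. MOB3B gave 107, 67.6, 23.6 and 31.0 on its dimmer probe (gap 1.12) and 205, 116, 66.5 and 70.0 on the other (gap 0.72). EXOC5, a subunit of the exocyst, had gaps of 0.63 and 0.62. CNN2, a calponin that binds actin, had gaps of 0.71 and 0.63. SEPTIN1, a septin of lymphocytes, had a gap of 0.78. LPXN, a focal adhesion adaptor of blood cells, had a gap of 0.74 and CNTN2, a cell adhesion molecule, gaps of 0.72 and 0.61. CRYBB1, a crystallin best known from the lens, had a gap of 0.80 with 61.6, 98.6, 26.3 and 35.9 on the 4 arrays. SPSB1, a substrate adaptor of a ubiquitin ligase, had gaps of 0.65 and 0.54. PHACTR1, a regulator of actin and protein phosphatase, and NECTIN1, a cell adhesion molecule, had gaps of 0.77 and 0.51. With normexp the gap was below the limit for CRYBB1 (0.47), the dimmer SPSB1 probe (0.43) and NECTIN1 (0.39). For the brighter SPSB1 probe, with a gap of 0.54, no normexp value is given. PHACTR1 and NECTIN1 were the 2 members among 67 probes of the adhesion, migration and cytoskeleton list (2.99%, beside 0.396% over all probes). The median gap of this list was -0.09. Like the other lists, it was chosen with earlier results of these data known, so its share is not independent evidence.

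**Figure D2:**
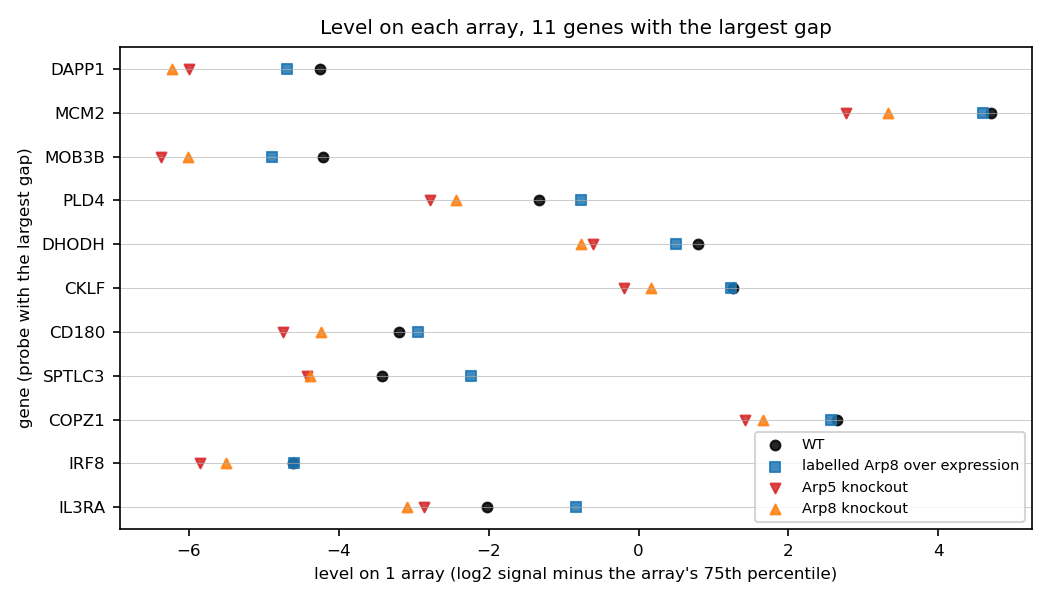
Level on each of the 4 arrays (log2 signal minus the 75th percentile of the array, horizontal axis) for the 11 named genes with the largest gap, ordered by gap, with 1 symbol per array and no error bars because each genotype has 1 array. By the selection, both knockouts lie to the left of both other arrays in every line; the level of a line depends on its probe and is not compared between genes, and for SPTLC3 and IL3RA the array labelled Arp8 over expression lies far to the right of WT.

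Within the set, the median of Arp5-knockout minus Arp8-knockout was -0.04, with 81 of 92 probes within 0.5 of 0. The quartiles of this difference were -0.24 and 0.20 over the members and -0.14 and 0.17 over all probes that passed the filters, and nothing is read from this because the members were selected on these levels. The lowest of the 4 levels was that of Arp5-knockout in 51 probes and that of Arp8-knockout in 41. Arp5-knockout was lower by more than 0.5 in 5 probes, of CD180, NECTIN1, SPSB1, MCM2 and KANK1. KANK1, an adaptor at the cell cortex, gave 71.9 on WT, 109 on the array labelled Arp8-over expression, 14.5 in Arp5-knockout and 51.2 in Arp8-knockout. NECTIN1 gave 306, 271, 60.3 and 189 on the same arrays. In these genes Arp8-knockout was close to the limit and Arp5-knockout far below it. Arp8-knockout was lower by more than 0.5 in 6 probes, of DMKN, CLN6, ARHGAP19, AMPD3, EXOSC8 and SNRNP40. DMKN, a secreted protein of the epidermis, gave 292, 309, 183 and 91.9 on the same arrays, the widest distance in that direction (1.03).

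The quartiles of the array labelled Arp8-over expression minus WT were -0.16 and 0.24 over the members and -0.17 and 0.20 over all probes that passed the filters. The array labelled Arp8-over expression lay within 0.5 of WT in 72 probes, above it by more in 12 and below it by more in 8. The 12 probes read 8 named genes, IL3RA, SPTLC3, PLD4, GPR18, NCF1, CRYBB1, KANK1 and RASSF4, and 1 unnamed transcript. GPR18, a lipid-sensing receptor of lymphocytes, gave 4228 on WT, 7024 on the array labelled Arp8-over expression, 2110.3 in Arp5-knockout and 2732 in Arp8-knockout. The 8 probes below WT included probes of GUCY1B1, MOB3B, PHACTR1, ARRDC5, CLEC2D and SLC12A7. For PHACTR1 the member probe gave 242 on WT and 148 on the array labelled Arp8-over expression. A brighter PHACTR1 probe that was not a member had the opposite order, with 3728 and 5729 on the same arrays. GUCY1B1, a subunit of the nitric oxide receptor, gave 204, 89.2, 50.6 and 59.5, so that the array labelled Arp8-over expression stood nearer to the knockouts than to WT. These genes, and other genes named outside the rule for named genes, were picked after their values were seen.

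Genes read by several probes show how far the gap depends on the probe. In 14 genes 2 or more probes were members, and the distance between the largest and the smallest gap in a gene had a median of 0.13, from 0.01 in AMPD3 to 0.40 in MOB3B. A further 29 probes of 21 member genes were not members, and 22 of these passed the filters. The member probes were chosen for a large gap and these were not, so a smaller gap on the other probes is partly given by the choice. Of the 22 probes, 20 (90.9%) had a gap above 0, beside 15.1% of all probes that passed, and 13 had a gap above 0.3. Their median gap was 0.37. These probes read the same RNA on the same arrays and do not stand for further cultures. Other probes of EXOSC8, GBP1 and NCF1 had gaps of 0.48, 0.46 and 0.44. Other probes of FARP1, ATP2A3 and PHACTR1 had gaps of 0.06, 0.10 and 0.16. The other probes of MRPS10 had gaps of 0.18 and 0.46 and those of DFFB 0.42 and 0.45. CLEC2D, which encodes a ligand of an NK-cell receptor, had probes that disagreed. Its member probe gave 4769 on WT, 3214 on the array labelled Arp8-over expression, 2200.3 in Arp5-knockout and 2046 in Arp8-knockout. A brighter probe gave 38029.5, 31506, 36726 and 35966 on the same arrays, a gap of -0.27, another bright probe had a gap of -0.29, and a dimmer probe had a gap of 0.27, in the direction of the member. Of the other member genes, 29 were read by their member probe alone.

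**Figure D3:**
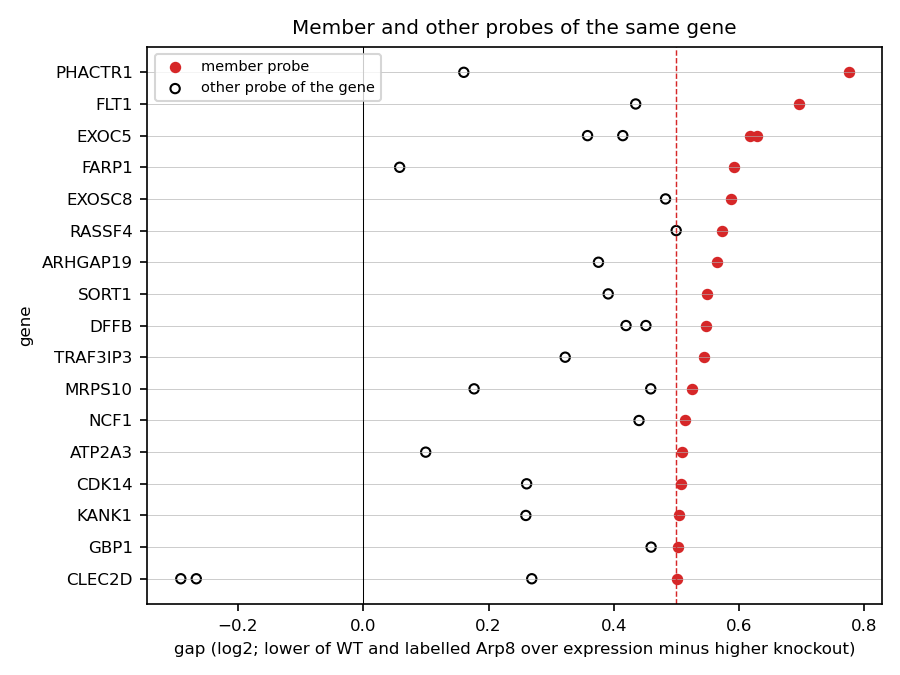
Gap (log2, horizontal axis) of the member probes (red) and of the other probes that passed the filters (open circles) for the 17 member genes that have both, from 1 array per genotype; the dashed line is the limit of 0.5 by which members were chosen. Of the 22 open circles 20 lie above 0, and the exceptions are the 2 circles of CLEC2D at -0.29 and -0.27.

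Most of the other gene lists held no member. There were 0 members among 23 probes of the INO80 complex (median gap -0.19), 61 of the antioxidant and Nrf2 target genes (-0.14), 59 of cholesterol and fatty acid synthesis (-0.35), 61 of glycolysis and hypoxia (-0.09), 64 of ATF4 and the unfolded protein response (-0.20), 60 of the replication-dependent histones (-0.97), 543 of the zinc finger genes by prefix (-0.25) and 38 of the immediate early genes (-0.57). The antioxidant list did not hold HMOX1 and the interferon-stimulated list did not hold MX1. Solute carriers had 1 member among 290 probes (0.345%, beside 0.396% over all probes, median gap -0.25). This was SLC12A7, a potassium-chloride cotransporter, with 416 on WT, 288 on the array labelled Arp8-over expression, 197 in Arp5-knockout and 165 in Arp8-knockout, and its gap was 0.50, or 0.34 with normexp. Every list median had the same sign under every scaling tried. In each list the share of probes with a gap above 0 was set beside the 15.1% over all probes. It was 17.4% for the INO80 complex, 23.5% for cytokine receptors, 8.20% for antioxidant genes, 3.39% for cholesterol and fatty acid synthesis, 21.3% for glycolysis, 26.6% for ATF4 and the unfolded protein response, 32.8% for adhesion, 3.33% for histones, 9.02% for zinc finger genes, 10.7% for solute carriers and 7.89% for immediate early genes.

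**Figure D4:**
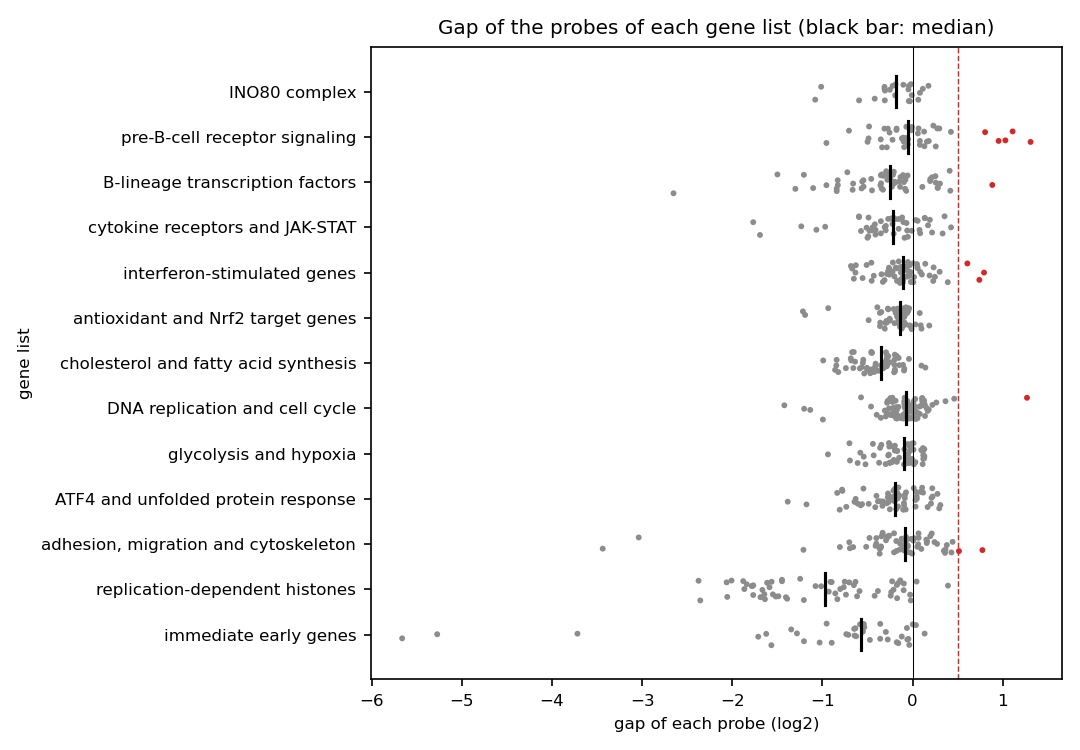
Gap (log2, horizontal axis) of each probe that passed the filters in the 13 gene lists given by symbol, 1 point per probe and a black bar at the median, from 1 array per genotype; members are red and the dashed line is the limit of 0.5. Red points occur in 5 of the lists shown, at most 5 in a list, and every median lies below 0.

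Positions and promoters were not used by the rule. The 77 named member probes fell on 21 of the 23 chromosomes counted (1 to 22 and X) and made up 0.455% of the 16930 named probes that passed the filters and were placed. Chromosome 13 held 6 members among 327 probes (1.83%), namely probes of CAB39L, UTP14C, FLT1, FARP1, EXOSC8 and GPR18, and chromosome 21 held 3 of 193 (1.55%), of MX2 and HEMK2. Chromosomes 8 and 18 held 0 of 570 and 0 of 246. The median gap over all named probes was -0.17 on chromosome 13 and -0.22 on chromosome 21, within the range of the other chromosomes. Among protein-coding genes in RefSeq order, only 2 pairs of member genes lay within 10 genes of each other. NCF1 and GTF2IRD2 were neighbors on chromosome 7, in a region with near-identical copies of both genes, and which copies the probes read was not tested. FARP1 and GPR18 were 6 genes apart on chromosome 13.

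Promoters of 49 of the 62 genes were found in the RefSeq table, 79 in all because several genes have more than 1 start. They were searched on both strands from 250 bases before to 50 bases after the start, and each share is given beside that of the 13378 promoters of genes that passed the filters and of all 35116 promoters. The ISRE was in 6 of 79 member promoters (7.59%, beside 6.66% and 8.11%), of the genes GBP1, GPR18, IL3RA, ISG20 and NCF1. The E-box was in 7 (8.86%, beside 9.49% and 7.26%), the NRF1 motif (GCGCATGCG) in 3 (3.80%, beside 3.31% and 1.92%), the CRE (TGACGTCA) in 2 (2.53%, beside 2.86% and 1.85%) and the ARE in 9 (11.4%, beside 14.7% and 13.3%). The YY1 motif (CCATNTT) was in 12 (15.2%, beside 15.8% and 15.6%), the CCAAT box in 25 (31.6%, beside 35.4% and 34.6%) and the ETS motif (CCGGAAG) in 9 (11.4%, beside 17.4% and 10.3%). Within the 250 bases before the start alone, YY1 was in 7 member promoters and the ISRE in 4. The SP motif was in 36 (45.6%, beside 65.9% and 45.0%) and the TATA box (TATAAA) in 13 (16.5%, beside 6.35% and 11.5%). The last 2 shares differ most from those of the genes that passed. Counted by gene, the TATA box was in 9 of 49 (18.4%, beside 8.47%), those of ACYP2, CRYBB1, EXOSC8, FLT1, IL3RA, KANK1, LPXN, PHACTR1 and TCF7, and the SP motif in 32 (65.3%, beside 76.5%). No test was made of any of these shares, and matches to different motifs can overlap.

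The limit of 0.5 parts probes that cannot be told apart within the technical error. Just inside it lay the lower probe of ACYP2 (gap 0.501), CLEC2D (0.501) and GBP1 (0.502). Just outside lay ATPSCKMT, a mitochondrial methyltransferase, with a gap of 0.49998 and signals of 1117 on WT, 1137 on the array labelled Arp8-over expression, 776 in Arp5-knockout and 799.6 in Arp8-knockout. The next were a further probe of RASSF4 (0.4996) and VPS52, a subunit of a tethering complex of the Golgi (0.493). The 15 unnamed members had gaps from 0.52 to 0.85, and the brightest of them gave 4309, 3954, 2196 and 1693 on WT, the array labelled Arp8-over expression, Arp5-knockout and Arp8-knockout.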

How the data were processed

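The intensity values were deposited as Agilent Feature Extraction 10.5.1.1 files, in which the scanner software had subtracted background from each Cy3 spot. The authors' value table equaled the processed signal times 1 factor per array (0.847 WT, 0.838 Arp5-knockout, 0.807 Arp8-over expression, 0.825 Arp8-knockout; medians 127, 128, 119.1 and 122.5), whose origin is not described. Control and outlier spots were left out, the log2 of the processed signal had the array's 75th percentile subtracted, and spots were averaged by probe. Probes had to be well above background on all 4 arrays (27921 of 41000) with a signal of 50 or more on WT and Arp8-over expression. Probes were named by accession through RefSeq (26222), through the study's tables (117, of the members only PHACTR1) or not at all (14661). Named genes were the 25 with the largest gap, those with 2 or more member probes, members of the 15 gene lists, the 3 nearest above and below the limit, and ACTR5, ACTR8 and INO80, giving 34 member genes. The members and lists were chosen with earlier results of these data known. Alternatives covered scaling, background correction, outliers, limits, comparators and the promoter window. Normexp (limma 3.58.1, offset 50) used the median spot signal in place of the mean. Python 3.11.15, pandas 2.3.3, numpy 2.4.6, matplotlib 3.10.9 and R 4.3.3 were used. The selection was run on simulated data with spot noise only, which tests the code and holds no variation between cultures.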

Additional observations from a re-analysis of the deposited data

How the results depend on the processing

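The count of probes lower in both knockouts (92) lay between 88 and 98 under quantile normalization (97), a percentile over probes well above background (88), no scaling (98), the authors' value table (92) and outlier spots kept (93), and 84 to 92 of the 92 were among those probes in each. It was 52 with normexp, 313 with a gap over 0.3 and 7 with a gap over 1. Against WT alone it was 422, and against the array labelled Arp8-over expression alone 355. Normexp added 50 to every corrected signal, which by itself lowers the gap of dim probes. How much of the drop to 52 comes from this was not tested. The other counts follow from the looser or stricter rule. The count of probes lower in both knockouts was 110 with no signal minimum and 78 with a minimum of 100. It was 92 when only WT and the array labelled Arp8-over expression had to be well above background. These filters also change how many probes could be chosen. The count of probes higher in both knockouts (61) was 32 with normexp, 110 with no signal minimum, 270 with a gap over 0.3, 7 with a gap over 1, 445 against WT alone, 530 against the array labelled Arp8-over expression alone and 32 as gene symbols, between 44 and 63 under the remaining choices of scaling, outlier spots and filters, and 78 with the signal minimum set on the knockouts, an alternative chosen after seeing the data. Of the 34 named genes, each read by its probe with the largest gap, all kept a gap above 0 under 5 alternatives. Since the rule had chosen their probes for gaps above 0.5 on these same arrays, nothing further is read from this. Their gap stayed above 0.5 in 32 under quantile normalization, 34 unscaled, 30 in the authors' table, 24 with normexp and 34 with outlier spots kept. Those that no longer passed the limit under normexp included CRYBB1, IRF8, PLPP7, AMPD3, SPSB1, CLEC2D, GBP1, NECTIN1 and SLC12A7, of which CLEC2D and GBP1 also did not under quantile normalization, and these with NECTIN1 and SLC12A7 not in the authors' table. With no signal minimum the median gap was -0.15 for glycolysis and hypoxia (from -0.09) and -0.27 for cytokine receptors (from -0.22). It was -0.93 for histones (from -0.97) and -0.60 for immediate early genes (from -0.57). The medians of the other gene lists differed by less than 0.031, the median SD of the gap over all 184 repeated probes. With the 250 bases before the start alone, member promoters with YY1 were 7 (from 12) and with the ISRE 4 (from 6), because the window is shorter. The SD of the gap over repeated spots was 0.079 at a dimmest signal of 50 to 100 and 0.028 at 500 or more, and 1 array per genotype gives no error between cultures. No paired analysis was possible because the arrays form no pairs.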
